A study of Mus musculus with 36 samples.

Results

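The comparison described here set colon samples of wild-type mice that received cromolyn after a course of azoxymethane (AOM) against colon samples of wild-type mice that received AOM only. It took 6 of the 36 samples of the series, 3 libraries in each group, chosen by their labels and not by any measured value. All were from C57BL/6 mice of 14 weeks and carried the label of a preneoplastic lesion of the colon. The AOM only mice had 3 injections of AOM over 3 weeks and were killed 3 weeks later. In the other group AOM was injected for 3 weeks and cromolyn was then injected throughout the following 3 weeks, up to the end of the experiment. Both groups shared the carcinogen, its 3 weeks and the age, and cromolyn is the difference that the labels state. The labels used here do not state the number of AOM injections in the cromolyn group, the dose and route of cromolyn, or whether AOM only mice had vehicle in its place. Another group of the same experiment, cromolyn injected together with AOM for 3 weeks and followed by 3 weeks without it (n = 3), entered the same fit. The series concerns mast cells in the early steps of colorectal tumours, and the drug was given to examine the part of mast cells in early lesions of wild-type mice.

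Mast cells sit in the mucosa and submucosa of the gut and store histamine, proteases and cytokines in granules, which they release when IgE receptors or other receptors are engaged. Cromolyn is a drug that blunts this release and is known as a mast cell stabiliser. Release itself is not measured by RNA. AOM is activated in the body to an alkylating agent that damages the DNA of the colon epithelium. Within weeks foci of aberrant crypts appear, next to stroma, vessels and lymphoid tissue.

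RNA was read with a targeted panel for mouse immune and cancer genes, which counts a short amplified stretch of each of 988 genes. Totals lay between 470661 and 544886 counts in the AOM only libraries and between 479743 and 514208 counts with cromolyn after AOM, and each library detected 877 to 900 genes. Levels are given as CPM, counts scaled to a library of 1000000 with TMM factors, always in the order of libraries 1 to 3. A difference is a log2 fold change, cromolyn after AOM minus AOM only, with its standard error (SE). To pass, a gene needed an adjusted p below 0.05, adjusted over the 768 genes with enough counts for the test. The epithelial markers Epcam and Car4 were abundant in all 6 libraries, with sums of 63281, 56187 and 46216 CPM for AOM only and 33332, 36223 and 19144 CPM with cromolyn after AOM. Stromal, endothelial, lymphoid and macrophage markers were present as well, and none of the smooth muscle markers is on the panel. In a mixed sample fewer cells of a type and less RNA per cell cannot be told apart. The labels do not say that each library came from its own mouse, so the p-values rest on a spread between libraries that may be technical.

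Cromolyn after AOM was accompanied by moderate changes on both sides. Of the 768 genes, 37 passed (4.82%), of which 18 rose (2.34%) and 19 fell (2.47%). The rises included genes of dividing cells (Birc5, Mki67, Cenpf), of lymphoid tissue (Ccl19, Madcam1) and of cytokine responses (Nos2, Socs1, Zbp1, Adar). Trat1 and Il13, known from T cells, also rose, while none of the T cell list passed. Ceacam12 of the carcinoembryonic antigen family and the epithelial gene Emp1 rose as well. The falls included genes known from fibroblasts, pericytes and vessels (Cd248, Cd34, Cxcl12, Vegfc) and from lysosomes and innate defence (Ctss, Ctsl, Casp1, Il15). The rises spanned 0.65 to 3.70 and the falls 0.53 to 1.60 on the log2 scale. For all 37 genes the 3 libraries of one group lay apart from the 3 of the other, which also held for 28.4% of all tested genes. An unadjusted p below 0.05 was found for 168 genes (21.9%). Over all 768 tested genes 396 lay above 0 and 372 below.

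The number of genes that passed rested on all 6 libraries. It was 2, 1 and 2 without AOM only replicate 1, 2 and 3, and 6, 8 and 2 without cromolyn after AOM replicate 1, 2 and 3. With a mean of 8 counts for AOM only, Ceacam12 entered the test only through libraries with cromolyn, where it was high. It passed in all 6 fits with 1 library left out, with adjusted p up to 0.0234, and no other gene did. None of the 37 genes changed its direction in any of them or under another scaling, filter or tool. With library totals in place of TMM scaling 20 genes rose and 8 fell, and with scaling to housekeeping genes 12 rose and 23 fell, so the balance of rises and falls depends on the scaling.

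**Figure D1:**
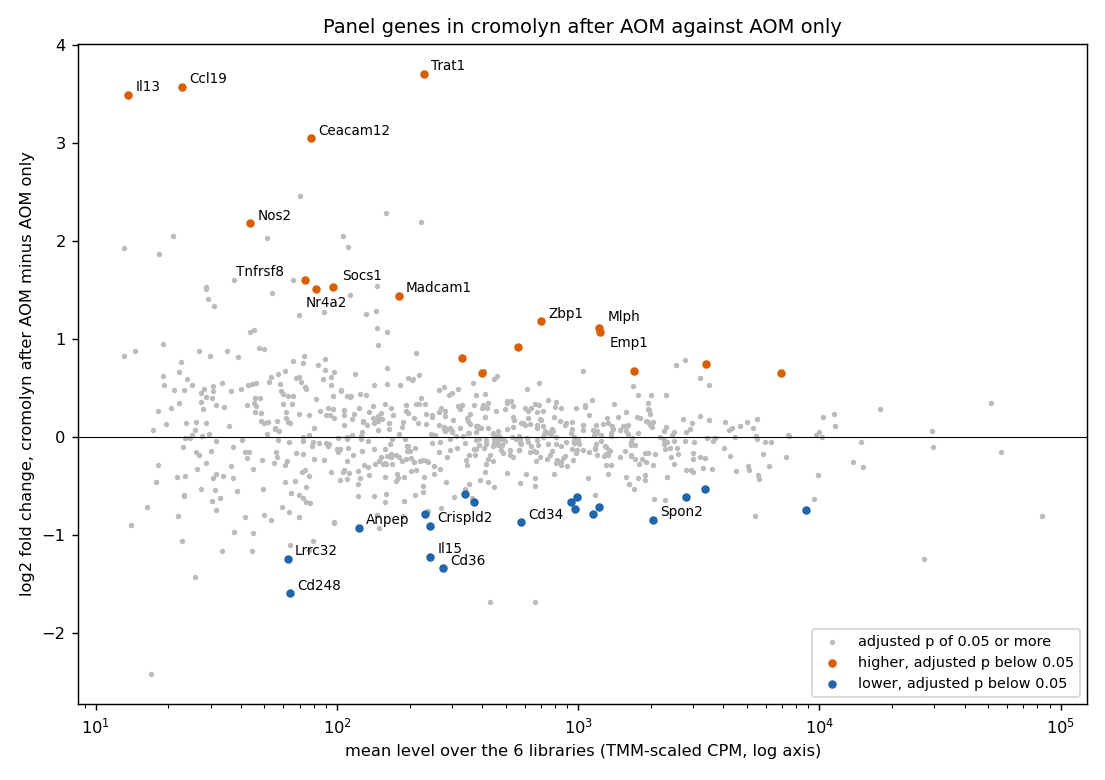
Log2 fold change of each of the 768 tested genes (vertical axis, cromolyn after AOM minus AOM only) against its mean level over the 6 libraries (horizontal axis, TMM-scaled CPM, log axis). The 18 genes that rose are orange and the 19 that fell blue; Trat1, Ccl19, Il13 and Ceacam12 lie highest, above 3, and Cd248 is the lowest blue point, at −1.60.

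Birc5, Mki67 and Cenpf, genes of dividing cells, rose with cromolyn after AOM. Birc5 encodes survivin, which guides chromosome segregation and blocks apoptosis. It stood at 3066, 2149 and 2384 CPM for AOM only and at 5053, 3598 and 4009 CPM with cromolyn after AOM. Its log2 fold change was 0.75 (SE 0.17, adjusted p = 0.0346), and the groups did not overlap. Mki67 encodes Ki-67, the marker of cycling cells used in pathology. It stood at 1426, 1253 and 1284 CPM against 2463, 1930.5 and 1887 CPM (0.68, SE 0.16, adjusted p = 0.0398). Every cromolyn library exceeded the highest AOM only library. Cenpf, a kinetochore protein made in late G2 and mitosis, stood at 254, 210.3 and 260.0 CPM against 574, 369 and 315 CPM (0.80, SE 0.21, adjusted p = 0.0474). Library 1 with cromolyn after AOM was the highest of the 6 for all 3 of these genes. Cdc25c, Spag5 and Bora, panel genes of cell division outside the proliferation list, were not among the 37 genes that passed. The panel holds 4 genes of that list, and 3 of 4 passed, all as rises, against 4.82% of all tested genes. The list median was 0.71 against 0.01 over all tested genes. The fourth, the chromatin helicase gene Hells, stood at 564, 411 and 382 CPM against 485, 354 and 484 CPM (−0.02, SE 0.20, adjusted p = 0.964), its groups overlapped, and its sign changed with library totals.

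The promoters of these 3 genes are shown because the genes rose together and many genes of the late cell cycle carry a pair of elements near their start: CCAAT boxes, bound by NF-Y, and the cell cycle homology region, TTTGAA, bound by the MuvB complex. Each sequence runs from 200 bases before the annotated start to 10 bases after it, in the direction of the gene (RefSeq, GRCm38.p6). Capitals mark TTTGAA and CCAAT on either strand, the latter as ATTGG where it lies on the other strand.
Mki67, chr7:135716370-135716579, minus strand: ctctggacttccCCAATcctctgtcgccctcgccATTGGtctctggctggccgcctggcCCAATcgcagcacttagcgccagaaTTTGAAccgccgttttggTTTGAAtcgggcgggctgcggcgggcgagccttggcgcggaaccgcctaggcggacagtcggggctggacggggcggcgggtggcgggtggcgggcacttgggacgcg
Cenpf, chr1:189688077-189688286, minus strand: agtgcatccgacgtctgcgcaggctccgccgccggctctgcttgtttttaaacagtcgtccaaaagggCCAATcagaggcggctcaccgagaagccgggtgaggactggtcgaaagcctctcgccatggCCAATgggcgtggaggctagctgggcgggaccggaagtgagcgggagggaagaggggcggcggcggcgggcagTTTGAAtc
Birc5, chr11:117849037-117849246, plus strand: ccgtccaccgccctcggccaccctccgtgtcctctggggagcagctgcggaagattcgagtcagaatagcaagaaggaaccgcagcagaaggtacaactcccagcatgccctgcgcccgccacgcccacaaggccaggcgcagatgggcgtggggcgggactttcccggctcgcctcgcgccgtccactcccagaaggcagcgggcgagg
Mki67 had 2 matches to TTTGAA and 3 to CCAAT, and Cenpf had 1 and 2. Birc5 had 0 of either in this window. Over 32851 promoter windows of the same length in the same table, 12.9% held TTTGAA and 30.2% held CCAAT. The files give expression only, so these matches describe the letters and say nothing about binding in these samples.

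A pair of genes of organised lymphoid tissue, Ccl19 and Madcam1, rose with cromolyn after AOM. Ccl19 encodes a chemokine of stromal cells that draws CCR7-bearing T cells and dendritic cells into lymphoid tissue. It stood at 2.39, 1.85 and 6 CPM for AOM only and 8.12, 61.1 and 57.6 CPM with cromolyn after AOM (3.57, SE 0.79, adjusted p = 0.0338). Library 1 of the cromolyn group was close to the AOM only libraries and the others were far above them. With a mean of 1.67 counts for AOM only, Ccl19 entered the test only through libraries with cromolyn, where it was high. Madcam1, the mucosal addressin by which lymphocytes leave the blood in the gut, rose from 83.7, 84.9 and 126 to 144, 282 and 362 CPM (1.44, SE 0.34, adjusted p = 0.0356). Again library 1 was the lowest of the cromolyn group, just above the AOM only range. Ccr7, the receptor of Ccl19, stood at 4.78, 9.23 and 10 against 12.2, 33.3 and 55.8 CPM (2.05, SE 0.59, adjusted p = 0.0729). It did not pass, although its groups did not overlap. Of the lymphoid follicle list 10 genes were tested, 2 rose, 0 fell and 10 lay above 0, with a median of 1.48 against 0.01 over all tested genes. Of all 768 tested genes 2.34% rose and 396 lay above 0. Ccl19, Ccr7 and Cr2 of this list had means of 1.67, 4 and 9.67 counts for AOM only. They entered the test only through libraries with cromolyn, where they were high, so the list values are not independent of the filter.

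The B cell genes varied more between libraries. Pax5, which maintains B cell identity, stood at 19.1, 11.1 and 36 CPM for AOM only and 34.5, 83.4 and 239 CPM with cromolyn after AOM (2.46, SE 0.89, adjusted p = 0.153). The groups overlapped, and library 3 with cromolyn after AOM was the highest. None of the 14 tested genes of the B and plasma cell list passed, 11 lay above 0 and 3 below, and the median was 1.30. Igkc, the kappa light chain gene made in largest amount by plasma cells, lay on the other side of 0, with 134665, 97117 and 88499.8 CPM against 48739.6, 64567 and 66725 CPM (−0.81, SE 0.28, adjusted p = 0.135). Summed over Ms4a1, Cd79a and Cd22, B cell markers came to 229.6, 77.5 and 144 CPM for AOM only and 168, 456 and 979 CPM with cromolyn after AOM. The defining follicle markers Cxcl13, Ccl19, Ccr7, Cxcr5 and Madcam1 summed to 828, 458 and 556 CPM against 505, 991 and 1452 CPM. Library 1 of the cromolyn group, lowest for Ccl19 and Madcam1, lay within the AOM only range for both sums. The part of the B cell and follicle content of a sample in these genes was not tested.

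Of the genes known from T cells, Trat1 and Il13 had some of the largest rises, while none of the T cell list passed. Trat1 encodes an adaptor of the T cell receptor complex. It stood at 57.4, 5.54 and 38 CPM for AOM only and 586, 348 and 335 CPM with cromolyn after AOM (3.70, SE 0.76, adjusted p = 0.0356), the largest rise among the genes that passed. All 3 cromolyn libraries were far above the AOM only libraries, of which library 2 was the lowest. Cd3e, a chain of the receptor complex itself, stood at 52.6, 46.1 and 68 against 64.9, 92.6 and 93.5 CPM (0.61, SE 0.30, adjusted p = 0.249), with overlapping groups. The sum of Cd3d, Cd3e and Cd3g came to 246, 203 and 282 against 211, 330 and 374 CPM. Among the cromolyn libraries this sum was lowest in library 1, where Trat1 was highest. The T cell list had 17 tested members, of which 0 passed, 16 lay above 0 and the median was 0.40. Tnfrsf8, the gene of CD30 on activated lymphocytes, rose from 55, 25.8 and 30 to 162, 70.4 and 98.9 CPM (1.60, SE 0.40, adjusted p = 0.0428). Il13, the type 2 cytokine that drives mucus secretion and can be made by T cells, innate lymphoid cells and mast cells, was close to the detection limit for AOM only. It stood at 0, 3.69 and 2 CPM there and at 28.4, 25.9 and 21.6 CPM with cromolyn after AOM (3.49, SE 0.88, adjusted p = 0.0428). With a mean of 1 count for AOM only, Il13 entered the test only through libraries with cromolyn, where it was high. The 3 cromolyn libraries lay close together and all above the AOM only libraries. Its decoy receptor gene Il13ra2, which interleukin 13 induces, stood at 19.1, 3.69 and 2 against 32.5, 22.2 and 30.6 CPM (1.86, SE 0.68, adjusted p = 0.144), without overlap of the groups. All cromolyn libraries lay above all AOM only libraries in 10.8% of all tested genes. With a mean of 3.67 counts for AOM only, Il13ra2 too entered the test only through libraries with cromolyn, where it was high. In the type 2 and eosinophil list 1 of 6 tested members rose, this same Il13, and 0 fell, with a median of 0.31.

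**Figure D2:**
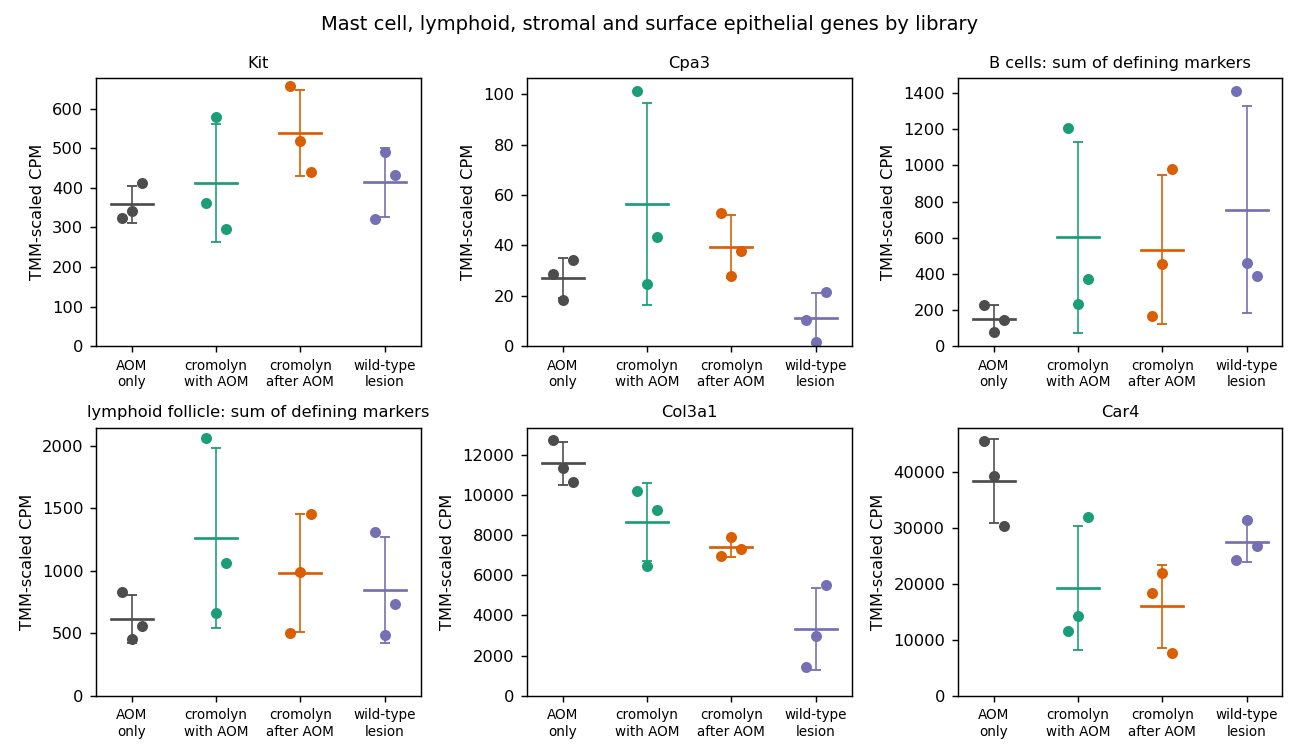
TMM-scaled CPM (vertical axes, from 0) of Kit, Cpa3, Col3a1 and Car4 and the sums of the defining B cell and lymphoid follicle markers, by library; points are libraries, wide bars means and thin bars SD (n = 3 a group). With cromolyn after AOM Kit lies above and Col3a1 and Car4 lie below the AOM only libraries, while the marker sums spread from within the AOM only range in library 1 to far above it in library 3.

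Several genes that answer cytokines or foreign nucleic acid rose. Nos2, the inducible nitric oxide synthase, stood at 12, 16.6 and 18 CPM for AOM only and 106, 79.7 and 30.6 CPM with cromolyn after AOM (2.18, SE 0.48, adjusted p = 0.0338). Library 3 was the lowest of the cromolyn group and still above the AOM only range. With a mean of 7.67 counts for AOM only, Nos2 entered the test only through libraries with cromolyn. Socs1, a feedback inhibitor of JAK-STAT signalling, rose from 50.2, 31.4 and 68 to 191, 132 and 106 CPM (1.53, SE 0.37, adjusted p = 0.0411). Zbp1, a sensor of Z-form nucleic acids that is induced by interferon, rose from 423, 450.2 and 426 to 1098, 761 and 1061 CPM (1.18, SE 0.21, adjusted p = 0.0258). In Zbp1 the AOM only libraries were nearly equal and every cromolyn library was well above them. Adar encodes an RNA editing enzyme whose interferon-induced form shares a Z-binding domain with ZBP1. It stood at 294, 336 and 312 against 483, 393 and 588 CPM (0.65, SE 0.16, adjusted p = 0.0428).

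The antiviral synthetase gene Oas2 stood at 74.1, 31.4 and 62 CPM against 103, 98.2 and 592 CPM (2.29, SE 0.82, adjusted p = 0.155), and it did not pass: library 3 alone was far above the rest. Among 12 tested genes of the type I interferon response 1 rose, 0 fell and 11 lay above 0 (median 0.40). Among 15 of the interferon-gamma response 2 rose, 0 fell and 10 lay above 0 (median 0.28). Of all 768 tested genes 2.34% rose and 396 lay above 0. The 2 rises of the interferon-gamma list were Nos2 and Socs1, and Nos2 entered the test only through libraries with cromolyn. Tap1, the peptide transporter of class I presentation, stood at 349, 227 and 370.0 against 607, 376 and 516 CPM (0.68, SE 0.21, adjusted p = 0.0892). The class I list had 0 passing genes of 17 (median 0.20). In the class II list of 8 genes (median 0.26) 0 rose and 1 fell, Ctss, which is described with the proteases.

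Ceacam12, Emp1, Mlph and Me1 rose. Ceacam12, of the carcinoembryonic antigen family of adhesion molecules, stood at 28.7, 9.23 and 14 CPM for AOM only and 158, 117 and 142 CPM with cromolyn after AOM. It had the smallest p of all genes (3.05, SE 0.37, adjusted p = 0.00143), and the lowest cromolyn library was far above the highest AOM only library. With a mean of 8 counts for AOM only, the gene entered the test only through libraries with cromolyn. The family has many similar copies, and how the panel tells them apart is not stated in the labels used here. Emp1, an epithelial membrane protein of differentiated surface cells, rose from 686, 727 and 1000.0 to 1317, 1797 and 1881 CPM (1.07, SE 0.20, adjusted p = 0.0258). Mlph, melanophilin, which tethers secretory organelles to actin motors, rose from 663, 753 and 904 to 1928, 1660.0 and 1383 CPM (1.11, SE 0.24, adjusted p = 0.0338). The groups were apart in both. Me1, the cytosolic malic enzyme that supplies NADPH, rose from 562, 289.7 and 326 to 844, 732 and 615 CPM (0.91, SE 0.21, adjusted p = 0.0356).

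Car4, the carbonic anhydrase of surface colonocytes, lay on the other side of 0 from Emp1, at 45470.4, 39238 and 30419 CPM for AOM only and 18366, 21991 and 7704 CPM with cromolyn after AOM (−1.25, SE 0.45, adjusted p = 0.153). All cromolyn libraries were below the AOM only range, library 3 by far, and yet the gene did not pass. The sum of Epcam and Car4 was likewise lower in each cromolyn library than in each AOM only library, but Car4 made up most of it for AOM only. Epcam and Muc1 together came to 17916, 17056 and 15907 CPM for AOM only and 15063, 14338 and 11530 CPM with cromolyn after AOM. Their log2 fold changes lay between −0.30 and −0.12, and neither passed. The part of epithelial content in the changes of other genes was not tested. Tmigd1, another surface gene, stood at 493, 395 and 652 against 684, 771 and 685 CPM (0.49, SE 0.17, adjusted p = 0.135). Of the surface colonocyte list 1 of 5 tested genes rose, 0 fell, 3 lay above 0 and 2 below (median 0.34). Nr4a2, an immediate-early nuclear receptor gene with no place in that list, rose from 35.9, 35.1 and 58 to 106, 106 and 153 CPM (1.51, SE 0.29, adjusted p = 0.0258). One further rise lay outside the rule for named genes and was picked after its values were seen. Cd177, a surface protein best known from neutrophils, stood at 4444, 5948 and 5849.7 against 9600.2, 6909 and 8782 CPM (0.65, SE 0.16, adjusted p = 0.0398). The neutrophil markers Cxcr2 and Csf3r summed to 12, 9.23 and 20 CPM for AOM only and 8.12, 5.56 and 12.6 CPM with cromolyn after AOM.

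**Figure D3:**
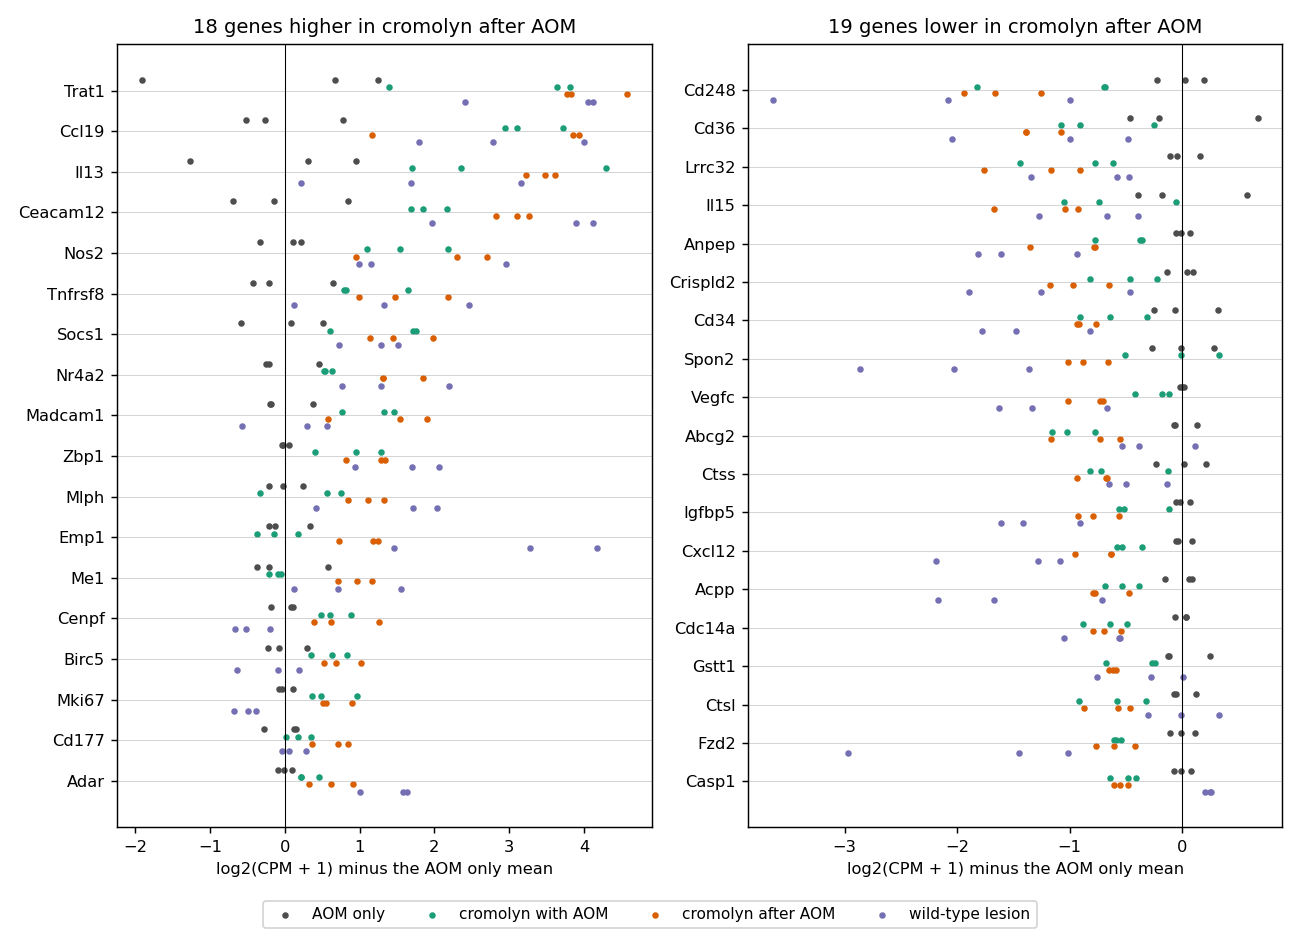
Level of each of the 37 genes in every library, as log2(CPM + 1) minus the mean of the AOM only libraries (horizontal axes), for AOM only, cromolyn with AOM, cromolyn after AOM and wild-type lesions (3 points each). The cromolyn after AOM points lie on 1 side of the AOM only points for every gene, while the wild-type lesion points lie at times beyond them, as for Emp1 and Spon2.

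Among the falls were 5 genes known from connective tissue and the cells around vessels. Cxcl12, the chemokine by which fibroblasts and vessel-associated cells hold CXCR4-bearing leukocytes, stood at 1609.8, 1478 and 1462 CPM for AOM only and 783, 980.1 and 975 CPM with cromolyn after AOM. Its log2 fold change was −0.71 (SE 0.13, adjusted p = 0.0258), and the AOM only libraries were nearly equal. Cd248, endosialin of pericytes and fibroblasts, stood at 110.0, 97.8 and 82 against 24.4, 29.6 and 39.6 CPM and fell by 1.60 in log2 (SE 0.35, adjusted p = 0.0338), the largest fall among the genes that passed. Spon2, a secreted matrix protein, fell by 0.84 (SE 0.20, adjusted p = 0.0398), from 3157, 2578 and 2158 to 1410.3, 1649 and 1286 CPM. Igfbp5, which binds insulin-like growth factors in the matrix, stood at 1174, 1279 and 1198 against 641, 823 and 702 CPM (−0.74, SE 0.15, adjusted p = 0.0332). Crispld2, another secreted matrix-binding protein, stood at 289, 339 and 328 against 162, 202 and 140.3 CPM (−0.91, SE 0.21, adjusted p = 0.0346). For these 5 genes all cromolyn libraries were below all AOM only libraries, which also held for 17.6% of all tested genes. All 37 genes that passed had groups that did not overlap, so this adds nothing to their passing.

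The matrix gene Col3a1, type III collagen, stood at 12739, 11339.6 and 10642 CPM against 6942, 7879 and 7305 CPM (−0.63, SE 0.17, adjusted p = 0.0529) and just missed the threshold. So did Pdgfrb, the receptor that marks pericytes, at 249, 231 and 220.0 against 134, 148 and 156 CPM (−0.65, SE 0.18, adjusted p = 0.0597). Fn1, fibronectin, had overlapping groups and a value above 0, with 1964, 2015 and 1942 against 3527, 2412 and 2009 CPM (0.43, SE 0.17, adjusted p = 0.166). Of the 8 tested genes of the fibroblast and matrix list 0 passed, 2 lay above 0 and 6 below, and the median was −0.49 against 0.01 over all tested genes. The 5 matrix and pericyte genes that fell are not in that list.

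In the vessel list Cd34 and Vegfc fell. Cd34, carried by capillary endothelium and by gut fibroblasts, stood at 928, 712 and 626 CPM for AOM only and 389.6, 439 and 394 CPM with cromolyn after AOM, and fell by 0.87 (SE 0.18, adjusted p = 0.0332). Vegfc, the growth factor of lymphatic vessels, stood at 292, 299 and 296 against 146, 178 and 182 CPM and fell by 0.79 (SE 0.18, adjusted p = 0.0338). In both the cromolyn libraries formed a tight group below the AOM only libraries. Edn1, the gene of the vasoconstrictor endothelin 1, stood at 954, 1007 and 1062 against 446, 396 and 98.9 CPM (−1.68, SE 0.49, adjusted p = 0.102), and library 3 was far lower than the other cromolyn libraries. Kdr, the VEGF receptor and the defining endothelial marker on the panel, stood at 215, 192 and 210.0 against 126, 183 and 144 CPM. Of 10 tested members of the endothelium and vessel list 2 fell, 0 rose and 7 lay below 0 (median −0.25). Of all 768 tested genes 2.47% fell and 372 lay below 0. Cd36, a fatty acid and scavenger receptor of capillaries, macrophages and adipocytes, fell from 596, 269 and 322 to 142, 176 and 142 CPM (−1.34, SE 0.30, adjusted p = 0.0346). AOM only library 1 was the highest by far. Fabp4, the fatty acid carrier of adipocytes and capillaries, had the same library on top, with 1287, 301 and 390.0 against 170.5, 232 and 201 CPM (−1.68, SE 0.54, adjusted p = 0.135). Anpep, aminopeptidase N, fell from 169.8, 161 and 156 to 62.9, 94.5 and 93.5 CPM (−0.93, SE 0.24, adjusted p = 0.0467).

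Another group of falls joined proteases and innate immune genes. Casp1, the inflammasome protease that matures interleukins 1 beta and 18, stood at 3939, 4201 and 3782 CPM for AOM only and 2707, 2844 and 2608 CPM with cromolyn after AOM (−0.53, SE 0.11, adjusted p = 0.0332). Each group was tight and they lay well apart. Il18, a substrate of that protease, stood at 8195, 6352 and 6268 against 4815, 4683 and 2274 CPM (−0.81, SE 0.27, adjusted p = 0.135). Ctss, cathepsin S, which trims the invariant chain of class II molecules, fell from 12704, 11054 and 9334 to 5737, 6873 and 6860.4 CPM (−0.75, SE 0.19, adjusted p = 0.0428). Il15, a cytokine that sustains NK cells and CD8 T cells in the epithelium, stood at 488, 249 and 290.0 against 172, 159 and 103 CPM (−1.23, SE 0.31, adjusted p = 0.0428). In Il15 AOM only library 1 was much higher than the other two. Lrrc32, which displays latent TGF-beta on regulatory T cells, platelets and endothelium, fell from 81.3, 84.9 and 98 to 38.6, 46.3 and 25.2 CPM (−1.25, SE 0.32, adjusted p = 0.0428). It was the 1 gene of 9 in the regulatory T cell list that passed (median 0.08), and Ctla4 of that list stood at 9.57, 11.1 and 10 against 14.2, 22.2 and 19.8 CPM.

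None of the 14 tested macrophage genes passed. Of them 13 had values below 0 and 1 above, with a median of −0.36. In 2 of them all cromolyn libraries lay below all AOM only libraries, which also held for 17.6% of all tested genes. Csf1, the growth factor of macrophages, stood at 435, 393 and 394 CPM against 248, 321 and 243 CPM (−0.57, SE 0.19, adjusted p = 0.106), and Cd68 at 399, 289.7 and 218 against 101, 193 and 230.2 CPM (−0.76, SE 0.31, adjusted p = 0.177). Library 1 with cromolyn after AOM was the lowest for Cd68 and its groups overlapped, while those of Csf1 did not. The summed markers Cd68, Csf1r and Adgre1 came to 959, 773 and 724 CPM for AOM only and 442, 628 and 809 CPM with cromolyn after AOM. Among inflammatory cytokines 1 of 9 tested genes rose (Nos2), 1 fell (Il15) and the median was −0.39.

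The remaining falls were of varied function. Abcg2, an efflux pump for drugs and xenobiotics on the luminal side of colonocytes, stood at 1404, 1609 and 1396 CPM for AOM only and 883, 999 and 653 CPM with cromolyn after AOM (−0.78, SE 0.16, adjusted p = 0.0332). Cdc14a, a phosphatase that counters cyclin-dependent kinases, fell from 1100.3, 1179 and 1182 to 710.2, 789 and 664 CPM (−0.66, SE 0.13, adjusted p = 0.0258). Acpp, an acid phosphatase, fell from 481, 472 and 406 to 325, 261 and 264 CPM (−0.66, SE 0.15, adjusted p = 0.0338). The groups were apart in all of these. The falls outside the rule for named genes, picked after their values were seen, were the glutathione transferase gene Gstt1 (−0.62, SE 0.14, adjusted p = 0.0356), the lysosomal protease gene Ctsl (−0.61, SE 0.16, adjusted p = 0.0428) and the Wnt receptor gene Fzd2 (−0.58, SE 0.15, adjusted p = 0.0428). In the list of Wnt and growth signalling 0 of 6 tested genes passed and all 6 lay below 0 (median −0.29). Smad3, which relays TGF-beta signals, stood there at 677, 886 and 774 against 469, 598 and 567 CPM (−0.50, SE 0.15, adjusted p = 0.0833).

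Mast cell genes did not pass. Kit, the receptor of stem cell factor, is carried by mast cells and by the pacemaker cells of the gut wall. It stood at 323, 341 and 412 CPM for AOM only and 657, 519 and 441 CPM with cromolyn after AOM (0.60, SE 0.23, adjusted p = 0.153). All 3 cromolyn libraries lay above the AOM only libraries. Cpa3, carboxypeptidase A3 of mast cell granules, stood at 28.7, 18.5 and 34 against 52.8, 27.8 and 37.8 CPM (0.55, SE 0.51, adjusted p = 0.558), with overlapping groups. Hpgds, which makes prostaglandin D2, stood at 242, 196 and 174 against 170.5, 170.4 and 167 CPM (−0.25, SE 0.20, adjusted p = 0.495). The groups of Hpgds did not overlap. Gata2, a transcription factor gene of mast cells and other blood cells, stood at 115, 86.7 and 62 against 71, 72.3 and 39.6 CPM (−0.51, SE 0.33, adjusted p = 0.408), with overlap.

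The other granule genes had too few counts for the fit. Tpsb2, a tryptase, had 9 counts in the pooled AOM only libraries and 25 with cromolyn after AOM, a ratio of 2.79 relative to library totals (exact 95% interval 1.26 to 6.79, which covers counting error only). Cma1, the chymase gene, had 15 and 17 counts (ratio 1.14, 0.534 to 2.45). Hdc, which makes histamine, had 10 and 14 counts (1.41, 0.581 to 3.54), and 8 of the 10 came from AOM only library 3. Ms4a2, the beta chain of the IgE receptor, had 5 and 6 counts (1.20, 0.306 to 4.99). Tpsab1 had 1 count for AOM only and 0 with cromolyn after AOM. Of the 4 tested mast cell genes 2 lay above 0 and 2 below, and the median was 0.15.

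**Figure D4:**
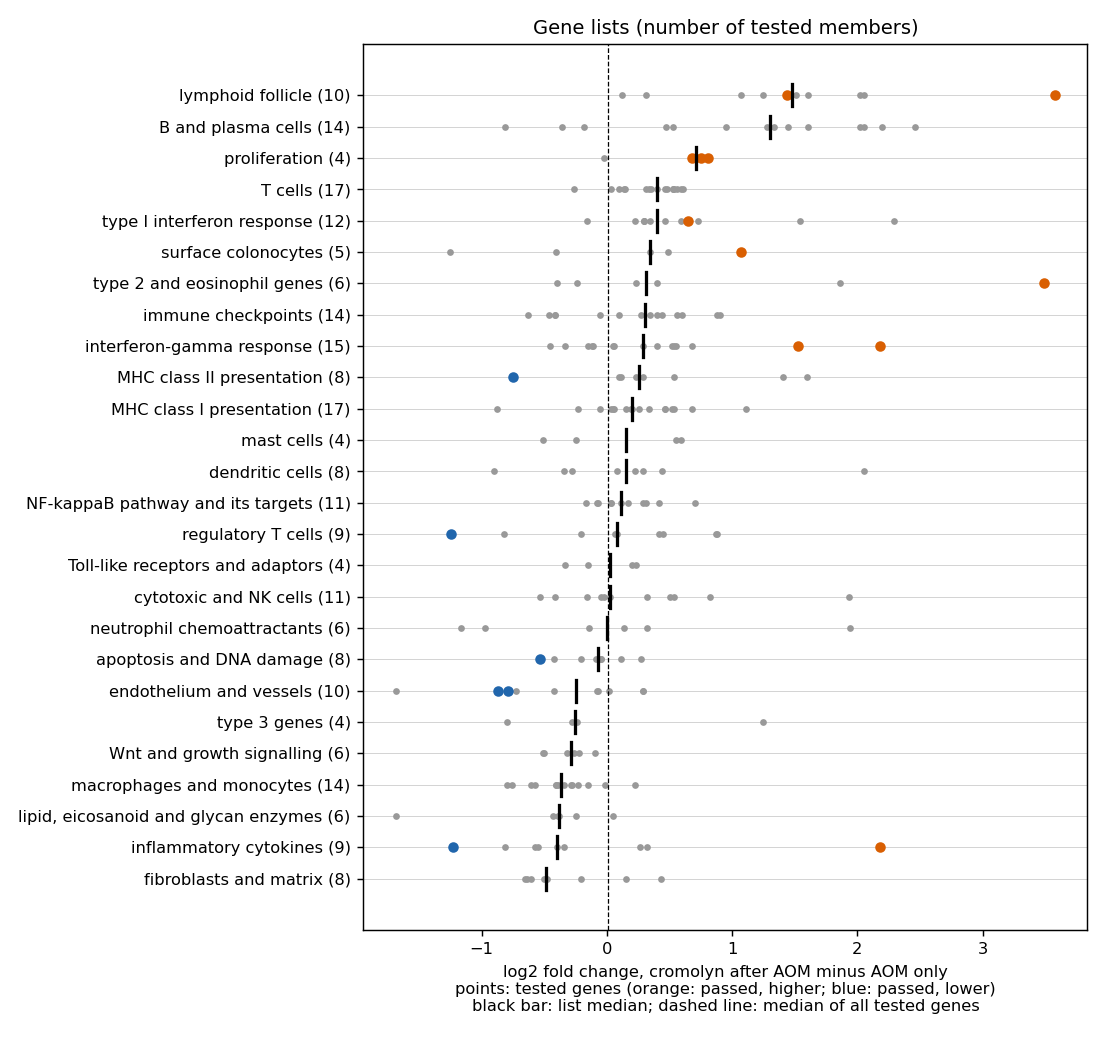
Log2 fold change (horizontal axis, cromolyn after AOM minus AOM only) of every tested gene in the lists with at least 4 tested members (rows, number in brackets); black bars are list medians and the dashed line is the median of all 768 genes. The lymphoid follicle and B cell medians lie farthest to the right, at 1.48 and 1.30, and the fibroblast and matrix median farthest to the left, at −0.49.

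Lists without a passing gene and with medians near that of all genes were cytotoxic and NK cells (median 0.03 over 11 tested genes), Toll-like receptors and adaptors (0.03 over 4) and neutrophil chemoattractants (0.00 over 6). The same held for the NF-kappaB pathway (0.12 over 11) and for dendritic cells (0.15 over 8). The chemoattractant list held values on both sides of 0, and none passed. Of it Cxcl5, a ligand of CXCR2, stood at 62.2, 49.8 and 26 CPM for AOM only and 266, 159 and 103 CPM with cromolyn after AOM (1.94, SE 0.57, adjusted p = 0.0893). Pf4, platelet factor 4, stood at 95.7, 59 and 32 against 20.3, 29.6 and 30.6 CPM (−1.17, SE 0.49, adjusted p = 0.19), and Ccl3, a chemokine of activated leukocytes, at 59.8, 38.7 and 50 against 38.6, 14.8 and 21.6 CPM (−0.97, SE 0.42, adjusted p = 0.198). For all 3 genes, named as members of smallest p, the groups did not overlap, with cromolyn above AOM only for Cxcl5 and below it for Pf4 and Ccl3. Of the 6 tested members 1 thus lay wholly above and 2 wholly below, against 10.8% and 17.6% of all tested genes. Immune checkpoints had 0 of 14 (median 0.31), type 3 genes 0 of 4 (−0.26) and lipid and eicosanoid enzymes 0 of 6 (−0.38). In the apoptosis list 1 of 8 genes fell, Casp1 (median −0.07). Smaller lists had 0 passing genes as well: neutrophils (2 tested), other epithelium (2), housekeeping (3, median 0.06), cromolyn receptors and ion handling (1, Fpr2) and muscle and enteric neurons (1, Kit). Fpr2, a formyl peptide receptor gene, stood at 45.4, 38.7 and 30 CPM for AOM only and 2.03, 20.4 and 18 CPM with cromolyn after AOM (log2 fold change −1.43). Its groups did not overlap, and it did not pass.

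To ask whether the timing of the drug mattered, cromolyn after AOM was set against cromolyn with AOM in the same fit. Since both schedules are otherwise read against the same AOM only libraries, this direct contrast is the test of a difference between them. edgeR's quasi-likelihood test called 0 of 768 genes (0%), 65 had an unadjusted p below 0.05, and DESeq2 called 6. The smallest adjusted p belonged to Emp1, at 899, 614 and 719 CPM with cromolyn during AOM and 1317, 1797 and 1881 CPM after it (1.15, SE 0.20, adjusted p = 0.0632). Me1 stood at 363, 353 and 325 against 844, 732 and 615 CPM (1.05, SE 0.22, adjusted p = 0.0701) and Tmigd1 at 403, 334 and 403 against 684, 771 and 685 CPM (0.90, SE 0.18, adjusted p = 0.0701). For these 3 genes every library of the later schedule was above every library of the earlier one. The cytotoxic granule gene Nkg7, named after its values were seen, lay the other way, at 316, 278 and 321 against 150.2, 163 and 187 CPM (−0.88, SE 0.18, adjusted p = 0.0701). Of the dividing-cell genes, Mki67 stood at 2572, 1693 and 1851 against 2463, 1930.5 and 1887 CPM (0.02, SE 0.16, adjusted p = 0.994). Against AOM only, cromolyn with AOM had list medians of 1.33 (lymphoid follicle), 1.42 (B and plasma cells) and −0.09 (fibroblasts and matrix). With cromolyn after AOM these were 1.48, 1.30 and −0.49. Of the 37 genes that passed with cromolyn after AOM, 35 had the same direction with cromolyn with AOM, and both comparisons share the AOM only libraries. A p above the threshold does not show that the schedules act alike.

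The series holds a second set of AOM-treated controls. The wild-type lesion libraries (n = 3) have the same strain, age and labelled treatment as AOM only, and the labels used here do not state whether both were prepared or sequenced together. Against them, in a fit added after the data had been seen, cromolyn after AOM differed in 75 of 778 genes (9.64%), 29 higher and 46 lower. Of the 37 genes that passed against AOM only, 20 had the same direction against the wild-type lesions and 17 the opposite one. Of the 18 rises 12 kept their direction and 6 did not, and of the 19 falls 8 kept it and 11 did not. The falls of opposite direction included all 5 matrix and pericyte genes, Cxcl12 (0.71), Cd248 (0.22), Spon2 (1.11), Igfbp5 (0.52) and Crispld2 (0.15). The 2 comparisons share the 3 cromolyn libraries.

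Passing in the same direction against both controls were Birc5, Mki67, Cenpf, Madcam1, Casp1 and Ctsl. Mki67 stood at 820.2, 941 and 1008 CPM in the wild-type lesions (1.18, SE 0.18, adjusted p = 0.0014), Cenpf at 168, 209 and 151 CPM (1.25, SE 0.23, adjusted p = 0.00606) and Birc5 at 2849, 2345 and 1602 CPM (0.90, SE 0.22, adjusted p = 0.0228). For these 3 genes every cromolyn library lay above all 6 control libraries. Madcam1 stood at 119, 64.4 and 143 CPM (1.26, SE 0.36, adjusted p = 0.0384), Casp1 at 4745, 4724 and 4569 CPM (−0.78, SE 0.13, adjusted p = 0.00274) and Ctsl at 2749, 3374 and 4266 CPM (−0.65, SE 0.19, adjusted p = 0.0467). Passing in the opposite direction were Emp1, Adar and Spon2. Emp1 stood at 7723, 14376 and 2175 CPM in the wild-type lesions, above every other library (−2.28, SE 0.47, adjusted p = 0.0128). Adar stood at 935, 971 and 629.5 CPM (−0.79, SE 0.19, adjusted p = 0.0227), and Spon2 at 356, 635 and 1014 CPM (1.11, SE 0.31, adjusted p = 0.0384).

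Ceacam12 and Trat1 differed less from the wild-type lesions than from AOM only, and neither passed against them. Ceacam12, the gene of smallest p against AOM only, stood at 288, 244 and 63.9 CPM in them (−0.50, SE 0.44, adjusted p = 0.488), and Trat1 at 427, 408 and 129.5 CPM (0.40, SE 0.60, adjusted p = 0.711). Of the connective tissue and vessel genes, Cxcl12 stood at 332, 625 and 711 CPM (0.71, SE 0.22, adjusted p = 0.0534), Cd34 at 217, 268 and 423 CPM (0.42, SE 0.24, adjusted p = 0.267) and Col3a1 at 1452, 2966 and 5491 CPM (1.16, SE 0.34, adjusted p = 0.049). Of these, Col3a1 alone passed against the wild-type lesions, higher with cromolyn after AOM, whereas against AOM only its value was below 0. B cell markers summed to 1415, 458 and 390.3 CPM in the wild-type lesions, against 229.6, 77.5 and 144 CPM for AOM only. The median of the lymphoid follicle list, 1.48 against AOM only, was −0.06 against the wild-type lesions, and that of the fibroblast and matrix list, −0.49, was 0.01. The proliferation list kept a median above 0 against both, 0.71 and 1.04.

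**Figure D5:**
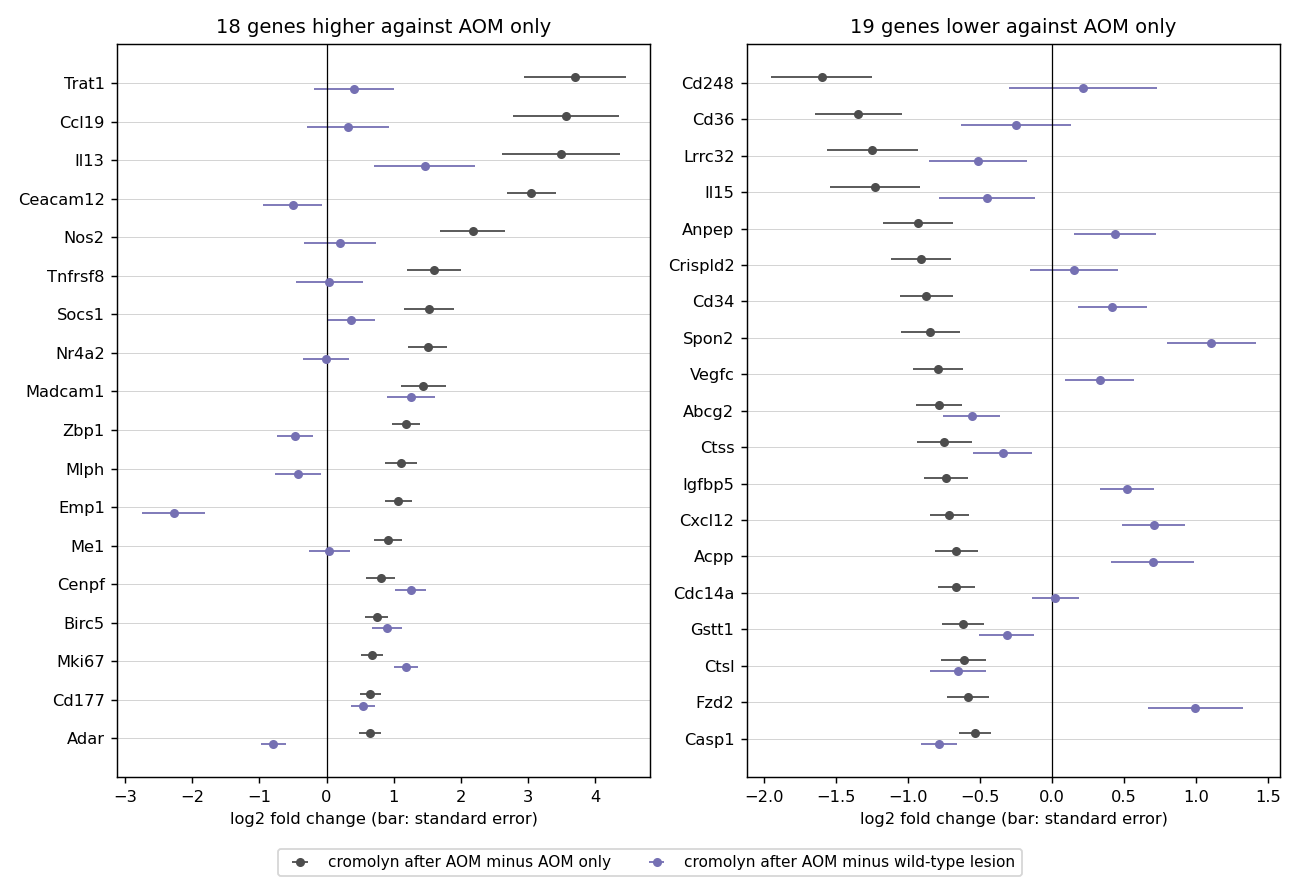
Log2 fold change with SE (horizontal axes) of the 37 genes for cromolyn after AOM minus AOM only (grey) and minus wild-type lesions (purple), with the 18 rises on the left and the 19 falls on the right. Cenpf, Birc5, Mki67 and Madcam1 lie right of 0 and Casp1 and Ctsl left of 0 for both controls, whereas Emp1, Adar and Spon2 lie on opposite sides.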

How the data were processed

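Colon RNA of the groups AOM only, cromolyn with AOM, cromolyn after AOM and wild-type lesion (3 libraries each, grouped by the labels' titles) was analysed. The values are whole-number counts per gene, deposited by the authors in 1 table of 993 entries with no normalisation. The 5 control entries, at 0 in every library, were dropped. The submitters' processing notes name the build mm9 and DESeq2. Aligner, counter and the use of molecular tags: not given in the sources used here. Promoter sequences come from RefSeq on GRCm38.p6 and were not joined to any coordinate of the authors.

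The counts deposited for the 3 groups of the cromolyn experiment were fitted together with edgeR 4.0.16 (R 4.3.3): TMM scaling, filterByExpr (minimum count 10, minimum total 15), robust quasi-likelihood test, Benjamini-Hochberg adjustment over all 768 tested genes. The wild-type lesion comparison fits all 12 libraries, over which CPM levels were also scaled. The SE is the log2 fold change over the root of the test's F. The method was tested on simulated data. Replicates differed by more than counting noise (chi-square per degree of freedom 5.30 to 24.8), so each library counted once. Genes named are the mast cell list, the 15 largest rises and 15 largest falls that passed with a mean of at least 10 counts, and up to 4 members of smallest p from each list with at least 4 tested members. The 31 lists hold 688 names, of which 290 are on the panel and 222 were tested. Members, lists and rules were chosen with earlier results of these data known. Alternatives were DESeq2 1.42.0, limma-voom (limma 3.58.1), other scalings, filters and sets of libraries, a replicate block and each library left out. The MC-38 tumours were not used here, and 1 defining B cell marker is not reported here and was left out of the marker sum.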

Additional observations from a re-analysis of the deposited data

How the results depend on the processing

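Against AOM only, 37 genes passed. The count was 22 with a mean of at least 50 counts, 23 with limma-voom, 0 in a fit of all 25 AOM libraries (69 at an unadjusted p below 0.05), 1 to 8 with 1 library left out, and 75 with the wild-type lesions as control. The causes were not tested. RLE size factors (37), library totals (28), housekeeping scaling (35), no low-count filter (36), DESeq2 (50) and a fit of the 2 groups alone (46) stayed within 1.5 times. The median over all genes shifted from 0.01 to 0.12 with library totals. With the replicate number as a block 21 genes passed, 18 of them among the 37. The deviations of same-numbered libraries correlated at −0.144, −0.061 and 0.130, and those of differently numbered libraries at −0.173 to 0.218. With 3 libraries a group these values cannot show whether libraries of the same number were paired or shared a batch.

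Cromolyn after AOM against cromolyn with AOM gave 0 calls, 3 with library totals, 4 with housekeeping scaling, 6 with DESeq2, 1 with the 2 groups alone and 0 to 1 with 1 library left out. With the replicate block it was 0. Among the named genes and over these settings, other than the change of control, direction changed in 4 genes that had not passed. With 1 library left out Gzma ranged from −0.16 to 0.85, Il2rb from −0.39 to 0.92 and Il1b from −0.14 to 0.57, each below 0 only without cromolyn after AOM replicate 3. Hells ranged from −0.13 to 0.17, and was 0.11 with library totals and 0.017 with a mean of at least 50 counts. Totals of 449880 to 544886 counts a library left genes under 10 counts, most mast cell granule genes among them, outside the test.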
